A study of Mus musculus with 44 samples.

Results

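The 10 genes described here encode proteins of lipid droplets and of triglyceride storage, several of them known from fatty liver. They were listed by function and not by a measured value, although earlier results of these data were known. They are the perilipins Plin2, Plin4 and Plin5, the CIDE proteins Cidea, Cideb and Cidec, the patatin-like phospholipases Pnpla2 and Pnpla3, the acyltransferase Mogat1 and the lipase inhibitor G0s2. Each symbol matched exactly 1 of the 38202 gene rows, by its Ensembl identifier. RNA was sequenced from the liver and the skeletal muscle of 11 wild-type (WT) and 11 Slc16a13 knockout (KO) mice, which gives 44 libraries and both tissues of every mouse. All mice were males on a C57BL/6N background, received a high-fat diet (HFD) for 15 weeks and were killed at 20 weeks of age. The methods describe an overnight fast before death. Slc16a13 encodes a monocarboxylate transporter. The deletion was constitutive, made with CRISPR/Cas9 and bred to homozygosity, so it was present in every tissue, and the WT mice were littermates. No library from mice on normal chow was analysed here, so the values describe livers and muscles on HFD only. The labels do not name the muscle.

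Triglyceride is built in the endoplasmic reticulum and packed into lipid droplets, which perilipins coat and shield from lipases. Lipolysis of the stored fat begins with adipose triglyceride lipase, the product of Pnpla2, and the G0s2 protein binds and inhibits this lipase. The CIDE proteins act where droplets touch and let small droplets pass lipid to larger ones, with Cidec and Cidea best known from fat cells and from steatotic liver, and Cideb from hepatocytes, where it takes part in the loading of very low density lipoprotein.

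The libraries held between 20150712 and 35218243 counted reads, and no pair of libraries was identical. In 4 of the 11 KO livers (animals 532, 583, 602 and 611) the counts fell with gene length relative to the mean of all livers. Levels are given in CPM, which are counts scaled to the size of the library by the TMM method. The slopes used CPM by total count alone, minus each gene's mean over all livers, these 4 included. On log2 gene length the slopes of log2 CPM were -0.60, -0.27, -0.46 and -0.09, whereas the 11 WT livers lay between 0.04 and 0.11. Liver results are therefore given with all 11 KO livers and without these 4. Slc16a13 had 99 to 302 reads in the WT livers and 0 to 8 in the KO livers. In muscle it had 4 to 22 reads in the WT libraries and 11 to 40 in those labelled KO, against the labels, so these are called muscles labelled KO throughout, and the direction of each muscle difference rests on the labels alone. The counts are for the whole gene and can include exons outside the deleted stretch. All 6 hepatocyte markers and all 6 muscle fibre markers were high in their own tissue, with summed levels of 83000 to 115700 CPM in WT livers and 127900 to 169700 CPM in WT muscles.

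Most of these genes differed between the tissues of the WT mice. Of the 10 genes, 6 were higher in liver, against 45.5% of all 13907 genes tested, and 3 were lower, against 45.5% of all (edgeR quasi-likelihood test, Benjamini-Hochberg adjusted p under 0.05, 91.0% of all genes called in either direction). The ranges of the 11 livers and the 11 muscles did not overlap for 8 of the 10 genes, against 70.9% of all genes tested. These shares are close to those of the whole table, so the count by itself does not set the 10 genes apart. In bulk tissue a lower level can come from fewer cells of a type or from less RNA per cell, and these cannot be told apart here.

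Among the perilipins, the order of the tissues differed from gene to gene. Plin2, the general perilipin of non-adipose tissue, lay between 726 and 1309 CPM in WT livers (median 999) and between 23.4 and 52.1 CPM in WT muscles (median 36.95), a log2 difference of 4.76 (SE 0.15, adjusted p = 1.3e-20). Plin5, the perilipin that ties droplets to mitochondria in oxidative tissue, lay between 70.4 and 130.6 CPM in liver (median 96.7) and between 22.8 and 62.9 CPM in muscle (median 32.1), a log2 difference of 1.501 (SE 0.15, adjusted p = 4.2e-10). Both genes were higher in the liver of each of the 11 mice. Plin4, which coats nascent droplets and is abundant in adipose tissue, was higher in muscle: it lay between 42.6 and 140.3 CPM in liver (median 76.9) and between 534 and 695 CPM in muscle (median 584), a log2 difference of -2.84 (SE 0.15, adjusted p = 2.5e-15). The lowest muscle lay far above the highest liver.

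The 3 CIDE genes had 3 different patterns. Cideb was all but restricted to liver, with 5867 to 11278 reads in every WT liver and 1 read in all 11 WT muscles together, a ratio per counted read of 89960 (95% exact Poisson interval 16150 to 3553000, which covers counting error only). Cidea lay between 0.763 and 65.8 CPM in liver (median 6.08) and between 0.203 and 2.24 CPM in muscle (median 0.588), a log2 difference of 4.18 (SE 0.63, adjusted p = 1.1e-06). It was higher in liver in 11 of 11 mice although the ranges of the 2 tissues overlapped. Cidec lay between 9.31 and 112.5 CPM in liver (median 38.2) and between 23.8 and 112.3 CPM in muscle (median 49.5), and the log2 difference of -0.62 did not pass the threshold (SE 0.36, adjusted p = 0.11). Only 2 of the 11 WT mice had more Cidec in liver than in muscle. Both tissues of a mouse share its number, and with this pairing as a replicate block the Cidec difference was -0.81 with an adjusted p of 0.00024, so that all 10 genes passed (91.1% of all genes). In the mice labelled KO the Cidec difference was -1.78 (adjusted p = 0.00025, all 10 genes called, 86.7% of all genes), and -1.59 without the 4 mice with the length-dependent livers (adjusted p = 0.0065).

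Pnpla2 and Pnpla3 were higher in muscle, and G0s2 and Mogat1 in liver. Pnpla2 lay between 66.7 and 90.25 CPM in WT livers (median 81.5) and between 276 and 476 CPM in WT muscles (median 321), a log2 difference of -2.04 (SE 0.08, adjusted p = 2.0e-18). Pnpla3, a lipid remodelling enzyme whose human variant is known from fatty liver disease, had 2 to 7 reads per WT liver and 173 to 435 reads per WT muscle, a ratio of muscle to liver per counted read of 62.0 (95% interval 46.2 to 85.2, counting error only). The ranges were far apart, and the liver counts were near the limit of detection. G0s2, the inhibitor of the Pnpla2 lipase, ran the other way, with 60.1 to 222.7 CPM in liver (median 116) and 4.05 to 14.02 CPM in muscle (median 6.23), a log2 difference of 4.07 (SE 0.26, adjusted p = 1.1e-13). Mogat1, which makes diacylglycerol from monoacylglycerol, had 44 to 355 reads per liver and 2 to 11 per muscle, a ratio of 33.3 (95% interval 25.8 to 43.8, counting error only).

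Per gene length, in RPKM as deposited (reads per kilobase of gene, scaled to the size of the library), Plin2 led in WT livers with 732 ± 138.5 RPKM (SD, n = 11), above Cideb with 252 ± 13.6 in all 11 mice. G0s2 followed with 152 ± 66.0, then Plin5 with 50.9 ± 8.82 and Pnpla2 with 46.2 ± 4.10, whose ranges overlapped and which were in this order in 8 of 11 mice. Cidec (27.5 ± 20.5), Plin4 (14.7 ± 5.52), Cidea (12.4 ± 16.3) and Mogat1 (6.10 ± 2.47) formed a lower tier in which each gene overlapped the next, and Cidea exceeded Mogat1 in only 6 of 11 mice. In WT muscles Pnpla2 led with 185 ± 35.1 RPKM, above Plin4 with 107 ± 9.45 in all 11 mice. Cidec (38.9 ± 20.5) and Plin2 (36.9 ± 8.43) came next and did not separate, since Cidec was the higher one in 5 of 11 mice. Plin5 (18.5 ± 6.40), G0s2 (9.32 ± 4.07) and Pnpla3 (2.18 ± 0.600) followed in the same order in 11 of 11 mice, and Cidea, Mogat1 and Cideb stayed under 1 RPKM on average. Plin2 and Cideb led in liver, and Pnpla2 and Plin4 in muscle. The summed RPKM of the 10 genes was 1294 ± 234 in WT livers, 1275 ± 211 in KO livers, 399 ± 67.6 in WT muscles and 420 ± 115 in muscles labelled KO. The sum for KO livers includes the 4 with length-dependent counts and was not computed without them.

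**Figure D1:**
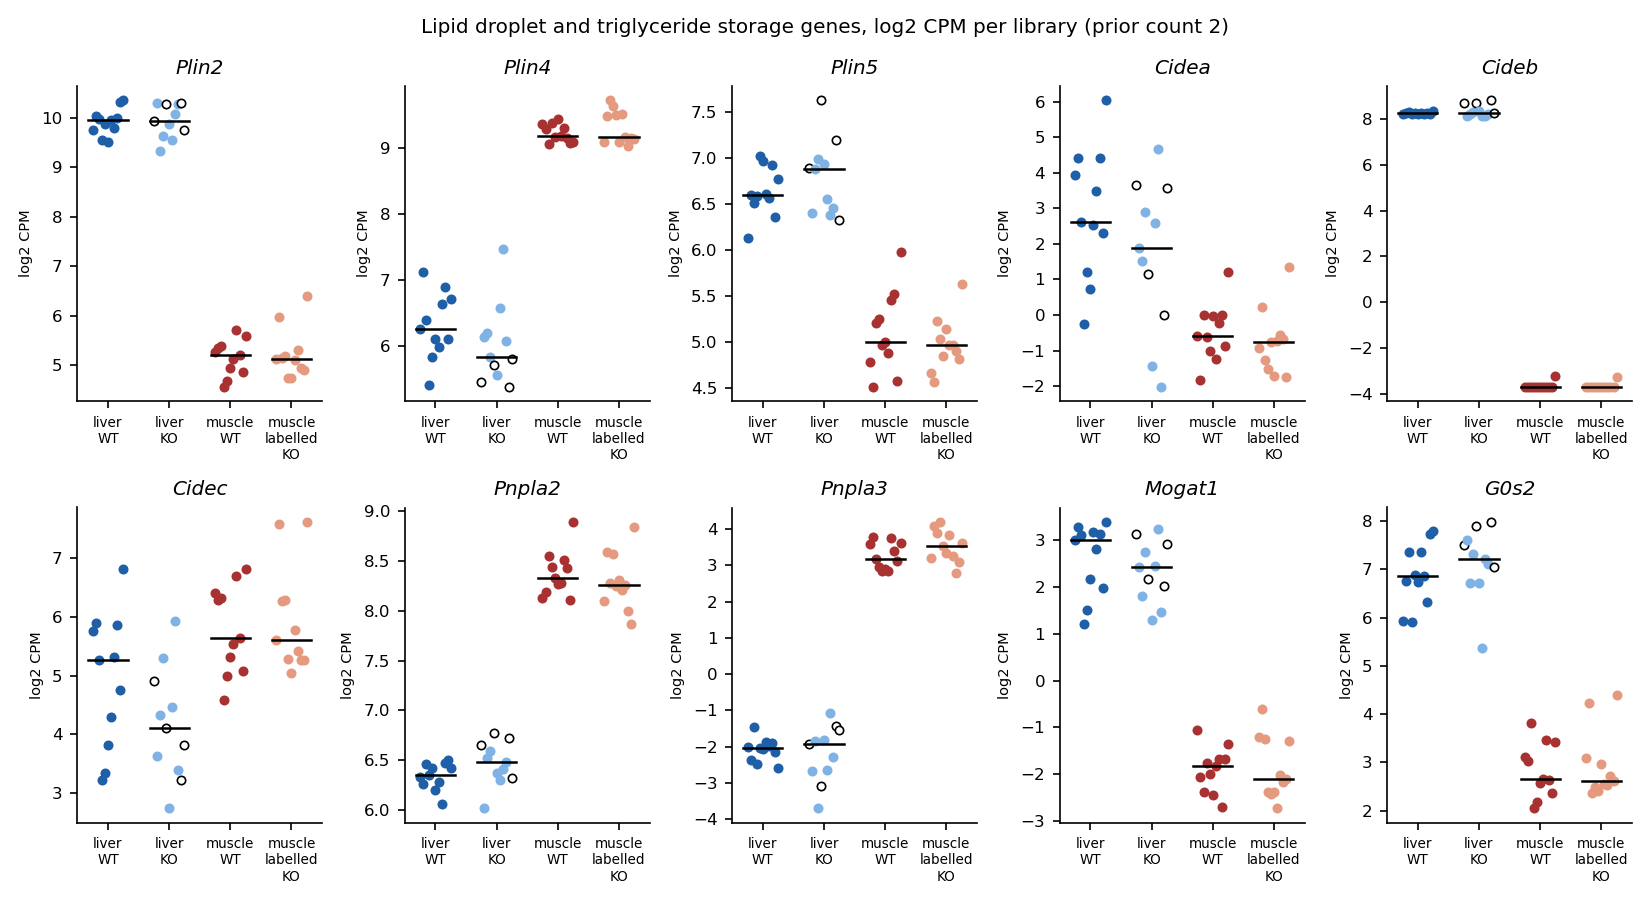
Level of each of the 10 genes in all 44 libraries, as log2 CPM with a prior count of 2 (vertical axis, own scale in each panel) by tissue and genotype (horizontal axis). Each point is 1 library and the black line is the median of 11. Open circles are the 4 KO livers whose counts fell with gene length relative to the mean of all livers. Plin4, Pnpla2 and Pnpla3 sit higher in muscle, while the WT and KO points of a tissue overlap in every panel.

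The study addressed the role of Slc16a13 in the fatty liver of mice on HFD, to which the comparison of KO with WT livers belongs. None of the 9 genes tested passed an adjusted p of 0.05, against 0.0231% of the 13005 genes tested, and 1 (Cidec) had an unadjusted p under 0.05, against 12.9% of all genes (DESeq2 also called 0 of the 9 after adjustment). Pnpla3, with 0 to 9 reads per KO liver, was below the filter on low counts. Without the 4 livers the count was again 0 of 9 after adjustment, against 0.0227% of all genes, and 0 at an unadjusted p under 0.05, against 2.96%. The ranges of WT and KO overlapped for all 9 genes, against 0.00769% of genes with separate ranges. Across the 9 genes the median log2 difference was 0.04, beside -0.0054 over all genes tested.

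Cidec and Cidea had the log2 differences farthest below 0 among the 9 genes, with a wide spread in both genotypes, and neither passed. Cidec lay between 9.31 and 112.5 CPM in WT livers (median 38.2) and between 6.62 and 60.6 CPM in KO livers (median 17.3). Of the 11 KO livers, 9 lay below the WT median and 2 below the lowest WT liver, and the other KO livers fell within the WT range. The log2 difference was -0.86 (SE 0.41, unadjusted p = 0.049, adjusted p = 0.38), and without the 4 livers -0.71 (SE 0.49, unadjusted p = 0.17). Leaving out 1 library at a time gave -1.14 to -0.57, with the value nearest 0 when the WT mouse with the highest Cidec (animal 624) was left out. Cidea lay between 0.763 and 65.8 CPM in WT livers (median 6.08) and between 0.169 and 25.2 CPM in KO livers (median 3.61), a log2 difference of -1.09 (SE 0.69, adjusted p = 0.41), and -1.14 without the 4 livers. Without that same WT mouse the Cidea difference was -0.43. Mogat1, whose levels followed Cidea from mouse to mouse, had a median of 7.96 CPM in WT livers (2.24 to 10.4) and 5.27 CPM in KO livers (2.36 to 9.29), with 9 of 11 KO livers below the WT median, and a log2 difference of -0.31 (SE 0.27, adjusted p = 0.50), and -0.43 without the 4 livers.

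The coat and lipase genes differed by less. Plin2 lay between 645 and 1255 CPM in KO livers (median 985), against a WT median of 999, with a log2 difference of 0.04 (SE 0.12, adjusted p = 0.88), and -0.03 without the 4 livers. Pnpla2 had a KO median of 89.4 CPM (64.6 to 109) and a difference of 0.14 (SE 0.08, adjusted p = 0.39), and 0.05 without the 4 livers. For Pnpla2, 5 of the 11 KO livers lay above the highest WT liver. The highest of them, animals 583, 602 and 532 with 109, 105.8 and 100.8 CPM, belonged to the 4 livers. Animals 570 and 568, with 96.3 and 91.65 CPM, did not. Cideb showed the narrowest WT range of all, from 295.5 to 330.2 CPM, and 3 KO livers lay above it and 3 below it. These high values belonged to the libraries with the length-dependent counts: the Cideb difference was 0.14 with all KO livers (SE 0.08, adjusted p = 0.40) and -0.03 without the 4, and the highest KO liver fell from 453 to 329 CPM. The differences of the longest and the shortest gene of the list also changed without the 4 livers. For Plin4 these 4 livers lay low, at 41.65 to 55.66 CPM, where the KO median was 56.89 CPM. Plin4, with an implied length of 5755 bases, differed by -0.24 with all livers (SE 0.23, adjusted p = 0.55), -0.47 without KO animal 597, -0.13 without WT animal 528 and 0.01 without the 4, and G0s2, with 842 bases, by 0.27 (SE 0.25, adjusted p = 0.54) and -0.0042. Plin5 went from 0.18 (SE 0.14, adjusted p = 0.48) to 0.02, and to 0.09 when only animal 583 was left out. For these genes the sign or the size of the difference depended on the 4 libraries. Markers of other cells in the same livers were 271 to 768 CPM in KO and 295 to 395 CPM in WT for the sum of 5 Kupffer cell and macrophage genes, and 0.931 to 15.6 CPM and 1.53 to 9.12 CPM for the 6 adipocyte genes, and the highest KO value of both was that of animal 532, one of the 4. Their part in the differences was not tested.

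**Figure D2:**
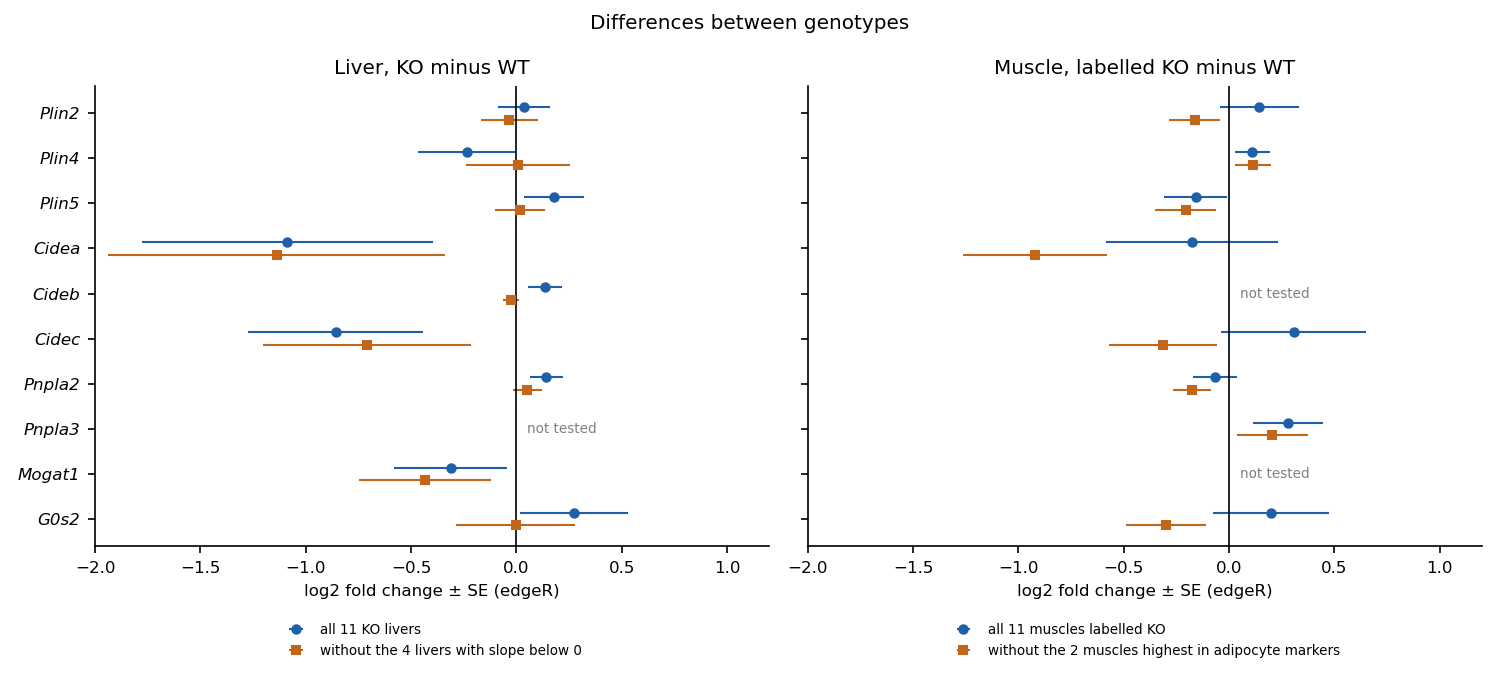
log2 fold change with its standard error (horizontal axis, edgeR) for each gene (vertical axis) in liver, left, and in muscle by label, right. Blue circles use all 22 libraries and orange squares leave out the 4 KO livers (left) or the 2 muscles labelled KO that were highest in adipocyte markers (right). No point passed an adjusted p of 0.05, and in muscle Plin2, Cidec and G0s2 move from above 0 to below 0. Those 2 muscles were also the highest of their group in these genes, and no WT muscle was left out.

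Variation among mice of 1 genotype was larger than the difference between genotypes for several of these genes. In WT livers Cidea varied 86.3-fold between the lowest and the highest mouse, and its SD of log2 CPM of 1.84 was exceeded by 7 of the 13005 genes tested, or 0.0538%, where the median gene had an SD of 0.18. Cidec varied 12.1-fold (SD 1.16, exceeded by 0.761% of genes), Mogat1 4.64-fold (SD 0.76, 2.51%), G0s2 3.70-fold (SD 0.65, 3.87%) and Plin4 3.29-fold (SD 0.50, 8.25%). At the other end was Cideb, which varied 1.12-fold, and 99.4% of the genes tested had a larger SD than its 0.05. The 2 CIDE genes of fat cells were among the most variable transcripts of the WT liver, and the CIDE gene of hepatocytes among the least variable. The summed level of the 6 adipocyte markers in the same WT livers was 1.53 to 9.12 CPM. Cfd had 26 to 210 reads per WT liver (median 3.84 CPM) and Adig 1 to 16 reads. Lep was at 0 reads in all 11 libraries, and Adipoq had 0 to 2 reads, Retn 0 to 3 and Plin1 0 to 1.

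Of these variable genes, Cidea, Cidec, Mogat1 and Plin4 moved together, and G0s2 did not move with them (r between 0.15 and 0.26). Over the 11 WT livers, Cidea and Cidec had a Pearson's r of 0.96 and a Spearman's rho of 0.98 (each with a permutation p of 1e-05, the smallest that 100000 permutations can give, and 0.00036 after Benjamini-Hochberg adjustment over 36 pairs), and r was 0.94 without the 2 mice farthest from the median. Mouse 536 had the lowest and mouse 624 the highest value of both. Of the 36 pairs, 5 passed the adjusted threshold in both r and rho, and all 5 joined Cidea or Cidec to each other, to Plin4 or to Mogat1. Plin4 had an r of 0.85 with Cidec (rho 0.92, adjusted permutation p = 0.012 and 0.0050) and 0.83 with Cidea (rho 0.88, adjusted permutation p = 0.012 and 0.0098). Mogat1 had an r of 0.85 with Cidea (rho 0.85, adjusted permutation p = 0.010 and 0.015) and 0.85 with Cidec (rho 0.82, adjusted permutation p = 0.012 and 0.024). After removal of the relation to gene length, these 5 pairs kept an r between 0.81 and 0.96. Plin5, Cideb and Pnpla2 stood outside this group, with r between -0.32 and 0.31 to Cidea, Cidec, Plin4, Mogat1 and each other. With the relation to gene length removed, however, Cideb had an r of -0.78 with Cidea, -0.74 with Cidec, -0.80 with Plin4 and -0.78 with Mogat1, and Cidea with Cideb then passed as a sixth pair. The standing of Cideb therefore depended on this step. The values of 1 library share its depth and scaling.

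**Figure D3:**
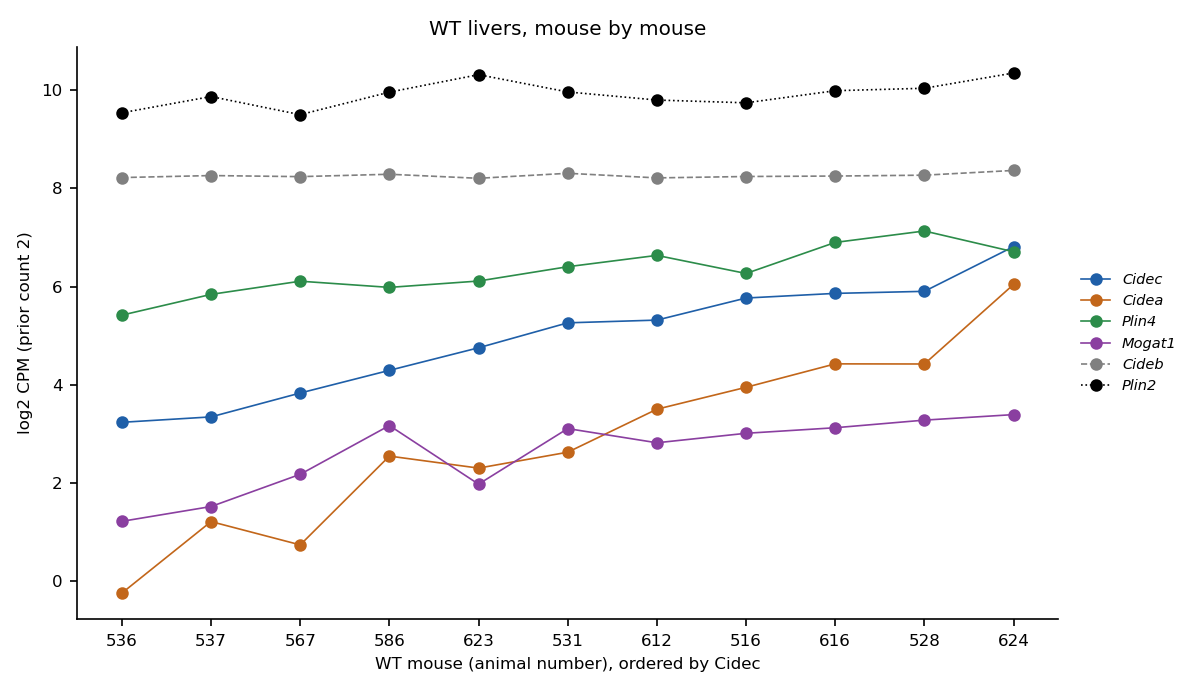
log2 CPM (vertical axis, prior count 2) of 6 genes in the 11 WT livers, which are ordered by Cidec (horizontal axis, animal numbers). Each point is 1 library and lines join points of 1 gene only to guide the eye; Cidea follows Cidec from animal 536 to animal 624, Plin4 and Mogat1 follow less closely, and Cideb stays between 295.5 and 330.2 CPM.

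The promoters of the co-varying genes are shown because the nuclear receptors of fat metabolism bind a direct repeat known as DR1. The RefSeq promoter table (GRCm38.p6) held entries for 9 of the 10 genes, all but Cidea, with 11 entries in all. The 250 bases before each start are printed 5′ to 3′ on the strand of the gene. Capitals mark a match to the DR1 motif, AGGTCA and then AGGTCA with any 1 base between them, on either strand with at most 2 mismatches. Mogat1 (chr1:78510810-78511059, plus strand), Plin4 (chr17:56109783-56110032, minus strand) and both Cidec starts (chr6:113435761-113436010 and chr6:113434765-113435014, minus strand) are the genes that moved together in WT livers, and Plin2 (chr4:86670060-86670309, minus strand) is the most abundant.
Mogat1: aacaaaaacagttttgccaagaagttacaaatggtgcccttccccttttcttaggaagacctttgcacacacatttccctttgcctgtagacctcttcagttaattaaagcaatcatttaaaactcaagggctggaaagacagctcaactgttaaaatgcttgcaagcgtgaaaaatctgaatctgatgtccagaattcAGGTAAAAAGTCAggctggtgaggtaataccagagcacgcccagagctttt
Plin4: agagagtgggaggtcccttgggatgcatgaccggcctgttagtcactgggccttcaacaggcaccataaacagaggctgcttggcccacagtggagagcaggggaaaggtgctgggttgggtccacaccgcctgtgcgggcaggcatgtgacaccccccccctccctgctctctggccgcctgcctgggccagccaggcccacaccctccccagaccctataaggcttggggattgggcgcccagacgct
Cidec, start farther upstream: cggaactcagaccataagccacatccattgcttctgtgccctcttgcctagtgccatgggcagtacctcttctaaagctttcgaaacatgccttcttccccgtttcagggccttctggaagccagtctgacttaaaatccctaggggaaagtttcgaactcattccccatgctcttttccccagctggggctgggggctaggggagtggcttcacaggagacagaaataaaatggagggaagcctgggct
Cidec, start farther downstream: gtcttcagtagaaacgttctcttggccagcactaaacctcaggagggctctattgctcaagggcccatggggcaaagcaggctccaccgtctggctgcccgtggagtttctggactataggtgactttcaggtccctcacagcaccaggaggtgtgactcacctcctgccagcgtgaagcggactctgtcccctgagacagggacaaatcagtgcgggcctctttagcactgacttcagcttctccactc
Plin2: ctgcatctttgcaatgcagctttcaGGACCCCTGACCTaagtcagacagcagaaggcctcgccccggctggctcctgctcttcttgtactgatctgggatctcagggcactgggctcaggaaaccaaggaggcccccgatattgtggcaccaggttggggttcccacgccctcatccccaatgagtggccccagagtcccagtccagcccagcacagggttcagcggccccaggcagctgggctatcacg
The Mogat1 match AGGTAAAAAGTCA began 51 bases before the start on the gene's own strand, and the Plin2 match GGACCCCTGACCT began 225 bases before the start and lay on the opposite strand, each with 2 mismatches. They were 2 of the 11 entries of these genes, and 3.24% of the 32851 entries of the whole table held such a match in a window of the same length. The other entries, Cidec and Plin4 included, held no such letters within these 250 bases. A match of letters describes the sequence and not the binding of a factor.

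In the 11 KO livers the same trio of Cidea, Cidec and Mogat1 stood out. Cidea and Mogat1 had an r of 0.95 and a rho of 0.95 (adjusted permutation p = 0.00072 and 0.00036), and r was 0.90 without the 2 farthest mice. Cidea and Cidec had an r of 0.81 (rho 0.82, adjusted permutation p = 0.020 and 0.026), while Cidec and Mogat1, with an r of 0.78, passed in r (adjusted permutation p = 0.029) and not in rho (0.75, adjusted permutation p = 0.052). Over the 7 KO livers left without the 4, these pairs had an r of 0.95, 0.90 and 0.89. Plin4 had an r of 0.59 to Cidec over the 11 KO livers and did not pass (rho 0.48, adjusted permutation p = 0.20 and 0.37). The r of Plin4 to Cidec was 0.71 over those 7, but 0.07 over the 11 without the 2 farthest mice. Animal 597, one of those 7, was the highest KO liver in both genes. The other pairs that passed in KO livers were Plin5 with Cideb (r 0.81, rho 0.80, adjusted permutation p = 0.020 and 0.026), Cideb with Pnpla2 (r 0.82, rho 0.87, adjusted permutation p = 0.016 and 0.015) and Plin2 with G0s2 (r 0.71, rho 0.80, adjusted permutation p = 0.043 and 0.026). Without the 4 livers r was 0.85, 0.59 and 0.59. Plin2 with G0s2 had a similar r of 0.73 in WT livers (rho 0.68, adjusted permutation p = 0.053 and 0.13). With the relation to gene length removed, 6 pairs passed in KO livers: Plin2 with G0s2 (r 0.62) was no longer among them, and Plin5 with Pnpla2 (r 0.86) and Cidec with Mogat1 (r 0.80) were. Whether a correlation differed between the genotypes was not tested.

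**Figure D4:**
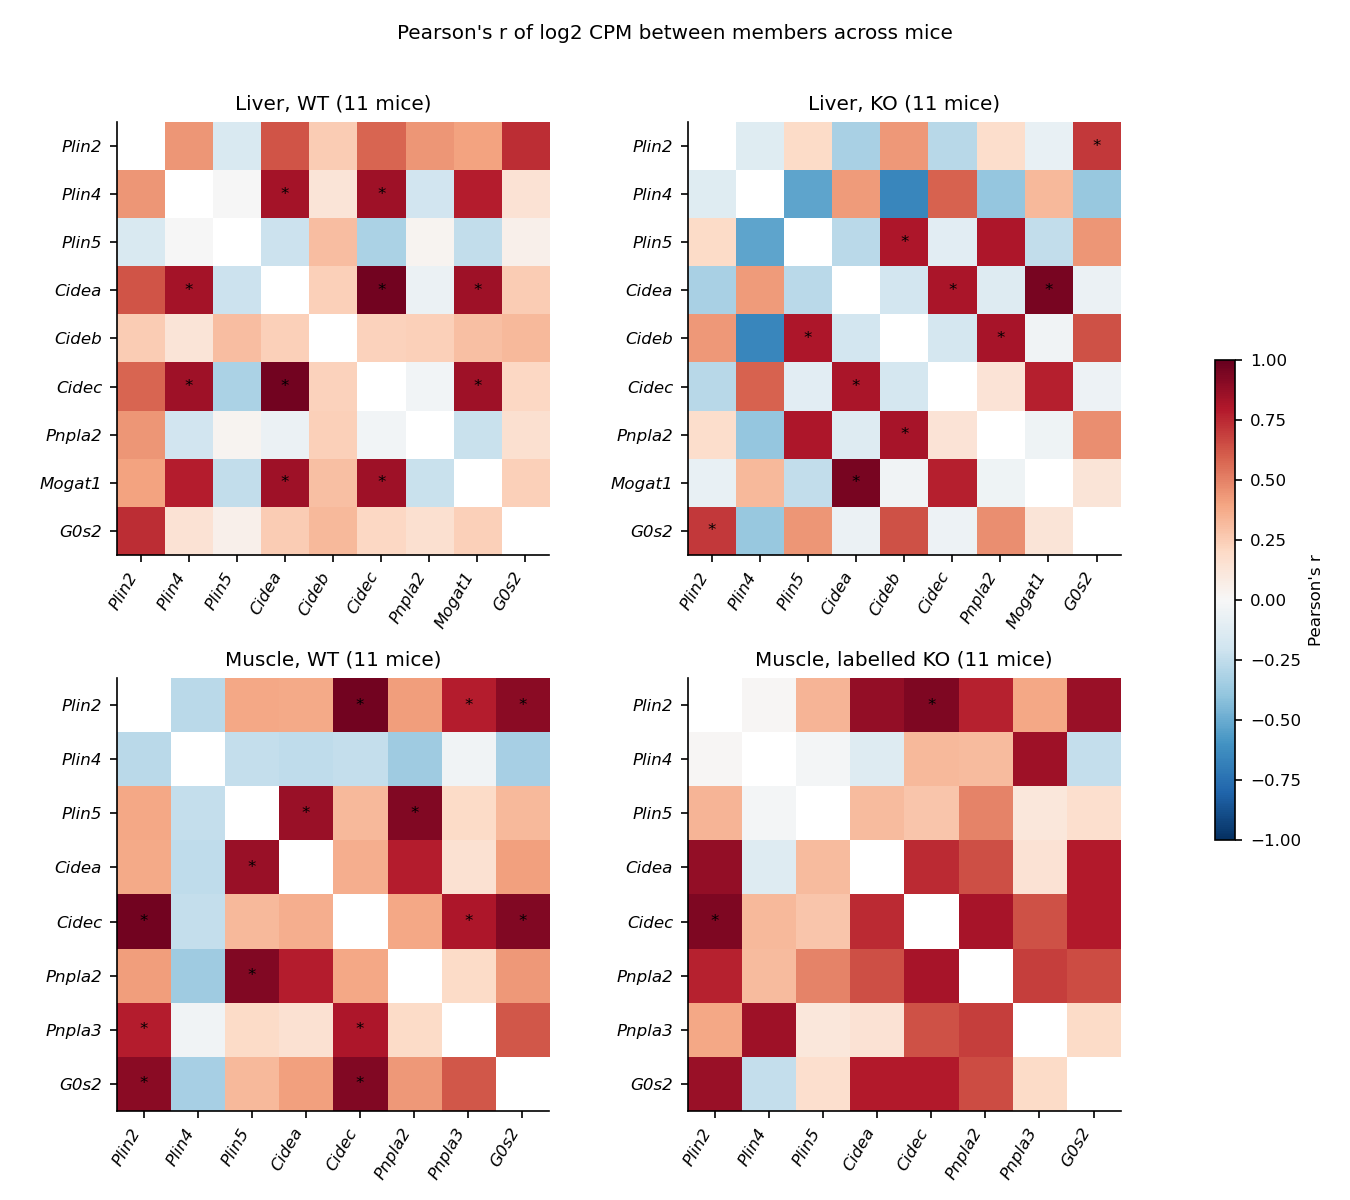
Pearson's r of log2 CPM (colour, from -1 in blue to 1 in red) between each pair of genes across the 11 mice of a tissue and genotype. An asterisk marks pairs past an adjusted permutation p of 0.05 in both r and rho, of which there were 5 in WT livers, 5 in KO livers, 7 in WT muscles and 1 in muscles labelled KO; the block of Cidea, Cidec, Plin4 and Mogat1 in WT livers and that of Plin2, Cidec and G0s2 in WT muscles stand out.

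In muscle, 8 of the 10 genes were tested and none passed an adjusted p of 0.05 between labels, against 0.00754% of the 13266 genes tested, nor an unadjusted p under 0.05, against 8.64% (DESeq2 called 0 of the 8 after adjustment as well). Cideb and Mogat1 were below the filter on low counts. The ranges overlapped for all 8, as 0.0% of the genes tested had separate ranges. The median log2 difference of the 8 genes was 0.13, beside 0.0078 over all genes. Cidec lay between 23.8 and 112.3 CPM in WT muscles (median 49.5) and between 32.97 and 195.8 CPM in muscles labelled KO (median 48.5), with a log2 difference of 0.31 (SE 0.34, adjusted p = 0.81), and 0.06 without animal 611. Plin2 differed by 0.14 (SE 0.19, adjusted p = 0.85) and G0s2 by 0.20 (SE 0.28, adjusted p = 0.86). The medians were close, and 2 muscles labelled KO, of animals 561 and 611, lay at 190.8 and 195.8 CPM while the next lay at 77.5 CPM. The same 2 animals were the highest of their group in Plin2, with 62.5 and 84.5 CPM against a WT maximum of 52.1, and in G0s2, with 18.6 and 20.96 CPM against a WT maximum of 14.02.

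Adipocyte transcripts moved with these genes. The summed level of 6 adipocyte markers (Adipoq, Lep, Retn, Cfd, Plin1 and Adig) was 73.0 to 290 CPM in WT muscles and 102 to 681.5 CPM in those labelled KO, and none of the 6 was at 0 in all libraries of a group. The muscles of animals 561 and 611 had the highest sums, 681.5 and 515 CPM, and the next of their group had 206 CPM. They also had the highest summed level of 6 hepatocyte markers, 53.8 and 33.5 CPM, where the other 9 had 4.27 to 12.4 CPM. That sum was dominated by Cyp2e1, which reached 1417 reads in the muscles labelled KO. The highest counts of the others were 158 for Alb, 26 for Ttr, 14 for Apoa1 and 8 each for Serpina1a and Fgb. In the WT muscles Cidec followed the adipocyte sum with an r of 0.99 (rho 0.98, adjusted permutation p = 5.3e-05 for both over 16 relations) and an r of 0.98 without the 2 farthest mice. G0s2 had an r of 0.95 (rho 0.96, adjusted permutation p = 5.3e-05 for both) and Plin2 an r of 0.94 (rho 0.97, adjusted permutation p = 8.0e-05 and 0.00012). Pnpla3 had an r of 0.74 (adjusted permutation p = 0.026) and a rho of 0.67 that did not pass (adjusted permutation p = 0.065). Plin4, the second most abundant of the 10 genes in muscle per length, had an r of -0.26 (adjusted permutation p = 0.54) and Plin5 0.23 (adjusted permutation p = 0.56). Pnpla2 had an r of 0.32 and Cidea 0.31 (adjusted permutation p = 0.47 for both). This relation was examined after the muscle values had been seen.

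In the muscles labelled KO the relation of Cidec was again close, with an r of 0.98 (rho 0.96, adjusted permutation p = 5.3e-05 for both), and of 0.91 without the 2 farthest mice. Plin2 had an r of 0.94 (adjusted permutation p = 0.0024) and 0.82 without them. The r of G0s2, 0.85, rested on those 2 mice, since it was -0.31 without them and rho was 0.24 (adjusted permutation p = 0.52). Cidea and Pnpla2 had an r of 0.78 and 0.74 (adjusted permutation p = 0.026 for both), but 0.13 and 0.29 without the 2 farthest mice. In rho neither passed (adjusted permutation p = 0.20 and 0.14). Pnpla3 had an r of 0.53 (adjusted permutation p = 0.15). With log2 CPM of Adipoq as a covariate the differences between labels were -0.08 for Cidec, -0.05 for Plin2 and -0.07 for G0s2, and without animals 561 and 611 they were -0.31 (SE 0.25), -0.16 (SE 0.12) and -0.30 (SE 0.19). The sign of all 3 changed, and none passed the threshold either way. Animals 561 and 611 were the highest of the group labelled KO in these 3 genes, and no WT muscle was left out. Leaving them out therefore lowers the differences by construction. Without those 2 libraries, 1 of the 8 genes, Cidea, had an unadjusted p under 0.05 (log2 difference -0.92, SE 0.34, p = 0.013, adjusted p = 0.40), against 10.2% of all genes. The same 2 libraries were also the highest of their group in Cidea, so the same limit applies.

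**Figure D5:**
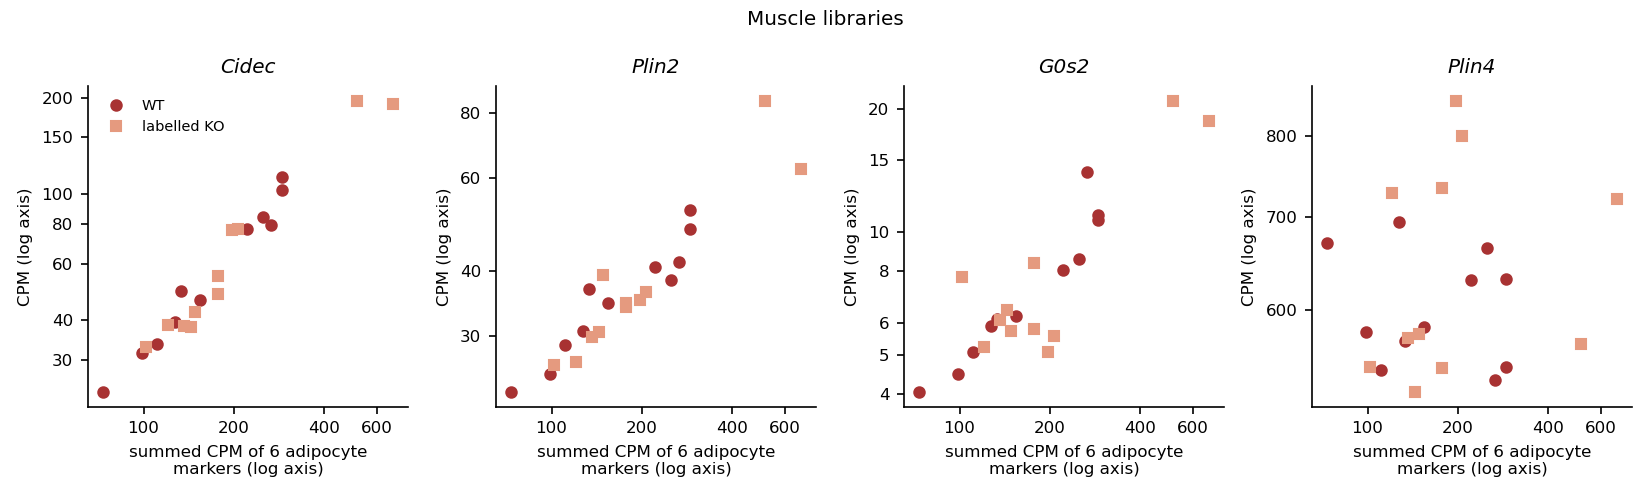
CPM of Cidec, Plin2, G0s2 and Plin4 (vertical axis, log scale) against the summed CPM of 6 adipocyte markers (horizontal axis, log scale) in 11 WT muscles (circles) and 11 muscles labelled KO (squares). Cidec and Plin2 rise with the marker sum and the 2 squares at the right are animals 561 and 611, whereas Plin4 shows no such rise.

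The other genes in muscle did not pass between labels either. Plin4 lay between 534 and 695 CPM in WT muscles and between 524 and 849 CPM in those labelled KO, and 5 of the 11 labelled KO lay above the highest WT muscle (log2 difference 0.11, SE 0.08, adjusted p = 0.73, and 0.07 without animal 568). Pnpla3 had a median of 8.97 CPM in WT (7.06 to 13.8) and 11.45 CPM in those labelled KO (6.82 to 18.4), with 9 of 11 above the WT median and a log2 difference of 0.28 (SE 0.16, adjusted p = 0.65). Pnpla2 had medians of 321 and 307 CPM (difference -0.07, SE 0.10, adjusted p = 0.88), Plin5 of 32.1 and 31.25 CPM (difference -0.16, SE 0.15, adjusted p = 0.78), and Cidea of 0.588 and 0.511 CPM (difference -0.18, SE 0.41, adjusted p = 0.92). Without the WT muscle of animal 624 these 3 differences were -0.0049, -0.04 and 0.16. In WT muscles Plin5 and Pnpla2, a perilipin and the lipase whose access to droplets it limits, had an r of 0.93 (rho 0.88, adjusted permutation p = 0.0010 and 0.0044). Plin5 had an r of 0.86 with Cidea (rho 0.85, adjusted permutation p = 0.0045 and 0.0080), and 0.70 without the 2 farthest mice. With the relation to gene length removed, Plin5 with Cidea (r 0.84) no longer passed in both r and rho. Cidea had only 5 to 79 reads per WT muscle (median 14). In muscles labelled KO the r of Plin5 with Pnpla2 was 0.49 (adjusted permutation p = 0.25) and with Cidea 0.32 (adjusted permutation p = 0.51).

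Whether the genotype difference itself differed between liver and muscle was tested with an interaction term over all 44 libraries. The main fit did not use the pairing of tissues by mouse. None of the 10 genes passed after adjustment, against 0.00678% of the 14739 genes tested, and DESeq2 called none of them either. At an unadjusted p under 0.05 there was 1, Cidec, against 16.2% of all genes, with a log2 value of -1.16 (SE 0.56, p = 0.043, adjusted p = 0.30). Without the 4 mice with the length-dependent livers it was -0.97 (p = 0.13) and none of the 10 had an unadjusted p under 0.05, against 3.57% of all genes. With the pairing as a replicate block over all 44 libraries, the Cidec value was -0.91 (SE 0.41, p = 0.036, adjusted p = 0.32). In that fit none of the 10 genes passed after adjustment, against 0.00678% of all genes.

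Ratios within a library do not depend on its scaling. The log2 ratio of G0s2 to Pnpla2, the inhibitor relative to its lipase, was 0.53 ± 0.63 in WT livers and 0.66 ± 0.66 in KO livers (SD, n = 11 each), a difference of 0.13 (two-sided permutation p = 0.64, adjusted p over 4 ratio tests 0.64), and -0.06 without the 4 livers. In muscle it was -5.53 ± 0.50 in WT and -5.36 ± 0.57 in those labelled KO (difference 0.17, adjusted permutation p = 0.64). The ratio of Plin5 to Plin2 was -3.28 ± 0.40 in WT livers and -3.15 ± 0.50 in KO livers (difference 0.13, adjusted permutation p = 0.64), with a difference of 0.07 without the 4 livers. In muscle this ratio was -0.04 ± 0.44 in WT and -0.25 ± 0.49 in those labelled KO (difference -0.20, adjusted permutation p = 0.64). In each case the difference was smaller than the spread among mice.

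Both tissues of a mouse were compared for the 7 genes tested in each. Over the 22 mice, as deviations from the mean of the genotype label, Cidec had a rho of 0.58 between the tissues (permutation p = 0.0065, adjusted p over 7 genes 0.046) and an r of 0.42 (adjusted permutation p = 0.29), which was 0.26 without the 2 farthest mice. Without the 4 mice with the length-dependent livers rho was 0.64 (adjusted permutation p = 0.044) and r was 0.53 (adjusted permutation p = 0.21). Since r did not pass in either set, the relation held in ranks only. For the other 6 genes tested in both tissues r lay between -0.37 and 0.36 and none passed.

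The remaining genes of the pathway were read from 3 lists. In liver, none of 12 triglyceride synthesis genes, 11 hydrolysis genes or 12 other droplet proteins tested passed an adjusted p of 0.05 between genotypes, against 0.0231% of all genes. At an unadjusted p under 0.05 there were 2, 1 and 2, against 12.9% of all genes, and 0, 0 and 1 without the 4 livers, against 2.96%. The values farthest from 0 were 0.46 (SE 0.71, adjusted p = 0.72) for Lpin1, a phosphatidate phosphatase, and -0.43 (SE 0.25, adjusted p = 0.39) for Gpam, which starts glycerolipid synthesis. Among hydrolysis genes they were 0.27 for Lipc, hepatic lipase (adjusted p = 0.38), and -0.15 for Ces1g, a carboxylesterase (adjusted p = 0.41). Among droplet proteins they were 0.27 for Aup1 (adjusted p = 0.38) and -0.23 for Acsl3, an acyl-CoA synthetase of nascent droplets (adjusted p = 0.48). Without the 4 livers none passed after adjustment, and the medians of the 3 lists lay between -0.05 and 0.0041. In muscle none of 12, 8 and 12 genes passed, against 0.00754% of all genes, and 0, 0 and 1 had an unadjusted p under 0.05, against 8.64%. The values farthest from 0 were 1.14 for Ces1f (SE 0.59, adjusted p = 0.60) and -0.09 for Hilpda, an inhibitor of the Pnpla2 lipase (adjusted p = 0.86), 0.34 for Plin1, the perilipin of fat cells (adjusted p = 0.82), and -0.15 for Fitm1, which acts in droplet formation (adjusted p = 0.53), 0.08 for Gpat3 and -0.09 for Agpat1.

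Between the tissues of WT mice nearly the whole pathway differed, like the table as a whole: 12 of 12 synthesis genes passed (8 higher in liver), 10 of 11 hydrolysis genes (7 higher in liver) and 13 of 13 droplet proteins (7 higher in liver). Among examples chosen after their values were seen, Lpin2 (log2 difference 5.87), Agpat2 (5.13) and Dgat2, which makes triglyceride from diacylglycerol (4.29), were higher in liver, and Agpat1 (-2.92) and Lpin1 (-1.90) in muscle. The lysosomal lipase Lipa (4.96) and Ces1d (3.41) were higher in liver, and lipoprotein lipase Lpl (-4.41) and hormone-sensitive lipase Lipe (-1.64) in muscle. Abhd5, the coactivator of the Pnpla2 lipase, differed by only -0.24 (SE 0.04, adjusted p = 3.9e-06). Hilpda was the gene that did not pass (0.31, adjusted p = 0.081). With the pairing of tissues by mouse as a block, 11 of 11 hydrolysis genes passed.

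Genes whose levels followed each of the 10 most closely were ranked by Spearman's rho over the 11 WT libraries of a tissue. Being the highest among all genes tested, these rho are high by construction and are given without a test. In liver Cidea was followed by Adamts15 (rho 0.99 in WT, -0.04 in KO), Tnip1 (0.98 and 0.78) and Cidec (0.98 and 0.82), and Cidec by Cidea, Dennd2d (0.98 and 0.42) and Gga2 (0.98 and 0.54). Mogat1 was followed by Taldo1 (0.98 and 0.46), Hr (0.98 and 0.95) and Spg21 (0.97 and 0.72), and Plin4 by Ermp1 (0.96 and 0.90), Top1mt (0.95 and -0.38) and Tpi1 (0.95 and -0.40). Without the 4 livers Top1mt and Tpi1 turned to 0.64 and 0.71 in KO. For Plin2 they were Mocos (0.95 and 0.61), Rad51d (0.94 and 0.42) and Reps1 (0.93 and 0.30), and for Plin5 Rpl36al (0.92 and 0.52), Nubp2 (0.91 and 0.59) and Tpst2 (0.90 and 0.85). Cideb was followed by Map2k5 (0.91 and 0.79), Polr2e (0.88 and 0.78) and Rbfa (0.88 and 0.81), Pnpla2 by Mrpl19 (0.93 and 0.53), Cbfa2t3 (0.89 and 0.27) and Chkb (0.87 and 0.52), and G0s2 by Slc25a42 (0.89 and 0.18), 4632428C04Rik (0.89 and 0.14) and Axin2 (0.87 and 0.28). The neighbours that kept a rho of at least 0.80 in KO livers were Cidec for Cidea and the reverse, Hr for Mogat1, Ermp1 for Plin4, Tpst2 for Plin5 and Rbfa for Cideb. Over the 7 KO livers without the 4, Rbfa was at 0.68, the others stayed at 0.82 or above, and Mocos (0.89), Nubp2 (0.93), Gga2 (0.86) and Axin2 (0.86) also exceeded 0.80.

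In muscle Cidec was followed by Sncg (rho 1.0 in WT, 0.85 in those labelled KO), Ywhab (0.98 and 0.90) and Ccdc80 (0.98 and 0.94), and Plin2 by Orm1 (0.98 and 0.94), Aoc3 (0.98 and 0.86) and Ctsb (0.98 and 0.98). G0s2 was followed by Cebpa (0.99 and 0.43), Aoc3 (0.97 and 0.33) and Epb41l2 (0.97 and 0.55). Aoc3 and Cebpa are known from fat cells, the first as an amine oxidase and the second as a transcription factor. Plin5 was followed by Cpt2 (0.95 and 0.13), a mitochondrial enzyme of fatty acid oxidation, Akap2 (0.95 and 0.42) and Fitm2 (0.95 and 0.76), and Pnpla2 by Ybx2 (0.97 and 0.35), Ppargc1b (0.95 and 0.07) and B9d2 (0.95 and 0.41). For Plin4 they were Gm9392 (0.95 and -0.48), Dnph1 (0.94 and -0.22) and Edc3 (0.93 and 0.55), for Pnpla3 Epn2 (0.95 and 0.29), Plod3 (0.93 and 0.76) and a gene known by identifier only (0.92 and 0.50), and for Cidea Dhrs4 (0.96 and 0.72) and Evc2 (0.94 and 0.12).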

How the data were processed

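Poly(A) RNA of 22 livers and 22 skeletal muscles was sequenced as strand-specific libraries. The authors deposited, for each library, counts of reads per gene (whole numbers, not normalized) and RPKM values (counts divided by gene length and by the depth of the library). The aligner, genome build and annotation are not given in the sources used here, and limma is named in the submitters' processing notes. Dividing counts by RPKM gave implied gene lengths, and 45.8% of values were off from a gene's median length by over 1%, so RPKM served for levels between genes, for sums over the 10 genes and as an alternative scale, not for the main tests.

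Groups came from the labels. Counts were scaled by TMM and filtered with filterByExpr in edgeR 4.0.16 (R 4.3.3), tested with the quasi-likelihood test over all genes and adjusted by Benjamini-Hochberg at 0.05. CPM values and spreads among mice use TMM over the 44 libraries, and log2 CPM a prior count of 2. Pair correlations, ratios, relations between the tissues of a mouse and the ranking of following genes used TMM within each tissue. Correlations and ratios used 100000 permutations. The steps were tested on simulated data. Alternatives were other scalings and filters, DESeq2 1.42.0, limma 3.58.1, log2(RPKM + 0.1) and log2(RPKM + 1), removal of the relation to gene length, an Adipoq covariate, and leaving out libraries.

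Both tissues of a mouse carry its animal number. Over 11607 genes, deviations from the group mean had a mean r of 0.0998 within WT mice (-0.0210 to 0.201) and 0.105 within mice labelled KO (-0.0263 to 0.261), and of -0.0100 and -0.00937 between different mice.

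The genes, the lists and several alternatives were chosen with earlier results of these data known. Genes named are the 10 genes, Slc16a13, from each other list those past the threshold or otherwise the value farthest from 0 in each direction in each tissue, and the 3 genes with the highest rho to each of the 10 over the WT libraries. For Cidea in muscle, 1 of these 3 is not reported here. Between tissues nearly all list genes passed, so counts and examples are given instead. Sequencing depth, 20150712 to 35218243 reads, limits Pnpla3 in liver and Cideb and Mogat1 in muscle.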

Additional observations from a re-analysis of the deposited data

Results flagged for a closer look

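Slc16a13, the targeted gene, was the 1 gene of 14739 whose genotype difference differed between the tissues in the edgeR test, where DESeq2 called 44 genes, scaling by total count 3 and removal of the relation to gene length 2. The log2 difference of Slc16a13 between KO and WT in liver minus that in muscle was -6.08 (SE 0.38, edgeR quasi-likelihood test, adjusted p = 5.9e-16), since the count fell in KO livers and was higher in the muscles labelled KO (log2 difference 0.64, unadjusted p = 0.0071, adjusted p = 0.49). None of the 10 lipid droplet genes differed in this way after adjustment in any of these fits.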

How the results depend on the processing

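None of the 10 genes passed between genotypes under any alternative run in either tissue, and leaving out 1 library at a time gave a count of 0 throughout. The liver difference of Plin2 turned to -0.0335 by total count alone, -0.0057 with gene length removed, -0.075 on both RPKM scales and -0.034 without the 4 livers, where Plin4 turned to 0.0075, Cideb to -0.026, G0s2 to -0.0042 and the G0s2 to Pnpla2 ratio to -0.056. In muscle, Plin2, Cidec and G0s2 turned to -0.048, -0.085 and -0.067 with Adipoq as a covariate. They turned to -0.16, -0.31 and -0.30 without animals 561 and 611, a choice made after seeing the data. That choice left out high libraries of the group labelled KO only, which lowers these differences by construction. With single libraries left out, Plin2 ranged from -0.0020 to 0.094 in liver and, in muscle, Plin2 from -0.029 to 0.21, Cidea from -0.69 to 0.16 and G0s2 from -0.027 to 0.32. Interaction values turned to 0.085 for Pnpla3 with length removed, and for G0s2 to -0.036 by total count and -0.055 without the 4 mice, where the median of all genes was -0.013, beside 0.11 with length removed and -0.11 by total count. Between tissues, 5 genes passed where every library had at least 10 counts, since fewer genes were tested. The replicate block by animal number gave Cidec -0.81 (adjusted p = 0.00024) and limma-voom -0.80 (adjusted p = 0.046), and the block changed no other call of the 10 genes. With length removed, 4 pairs in WT muscles and 2 in muscles labelled KO passed, and the r of Plin4 between tissues turned to -0.16 without the 4 mice. Unless stated, the cause was not tested.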
